A study of Mus musculus with 6 samples.

Results

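Geminin, its binding partner Cdt1, the loading factor Cdc6 and the 6 subunits of the origin recognition complex (ORC) were followed in mouse embryonic stem cells entering neural fate with and without knockdown of geminin. The 9 genes Gmnn, Cdt1, Cdc6 and Orc1 to Orc6 were taken as every probe set that the platform annotation gives to exactly 1 of these symbols, which were 19 of the 34945 probe sets with 1 symbol and of the 45037 probe sets on the array. The cells came from ES-E14TG2a, a mouse embryonic stem cell line with a 129P2 genetic background. They were kept for 2 days in N2B27, which holds no serum and leads such cells towards neuroectoderm. All lines had a doxycycline (Dox) inducible shRNAmir, a hairpin RNA processed like a microRNA, that targets Gmnn. GemKD cultures received Dox, given as 500 ng with no volume, and the uninduced controls of the same line did not. In experiments 1 and 3 the hairpin was shRNAmir 11, and in experiment 2 it was shRNAmir 9 in a separate line. There were thus 3 GemKD and 3 control arrays (Affymetrix Mouse Genome 430 2.0), 1 of each per experiment. No culture with Dox and without a hairpin was analysed here, so Dox and knockdown cannot be told apart. In bulk RNA, fewer cells with a transcript and less transcript per cell cannot be told apart either.

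In each cell cycle an origin of replication is licensed once. ORC binds the origin, Cdc6 joins it, and Cdt1 brings the MCM2-7 helicase, which is loaded around the DNA. Geminin binds Cdt1 from S phase until mitosis and so blocks loading a second time, and it is also known to bind chromatin regulators and homeodomain proteins in the embryo. In animal cells geminin, Cdt1 and, in human cells, ORC1 are controlled to a large extent by protein destruction, which RNA levels do not show.

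Median signals of the arrays were 59.3 to 60.9, and having 3 arrays a group limits how precise any value is. Both arrays of experiment 3 stood apart. Over the 13511 brightest probe sets the SD of the log2 difference between GemKD and control was 0.134, 0.179 and 0.159 in experiments 1, 2 and 3, but 0.350 to 0.378 between an array of experiment 3 and any array of the others. Of 6 early neural markers the median log2 difference between experiment 3 and experiments 1 and 2 was -0.55, with Sox1 at -2.04, Pax6 at -2.24 and Zic1 at -0.85, Sox2 at -0.18 and Hes5 at -0.26, and Nes at 0.10. Of 8 naive pluripotency genes it was -1.09, with Nanog at -2.61 and Pou5f1 at -0.03, and of 4 primed epiblast genes 0.94, with Fgf5 at 2.17. All 6 early neural genes had a mean signal above the limit of 20.1 used for testing, and Hes5, at a mean signal of 23.2 in the controls, was dim. Control signals of Nanog were 1713, 1565 and 288 in experiments 1, 2 and 3 and those of Pou5f1 7387, 7711 and 7403, so transcripts of pluripotent cells were also present. Values below are therefore given within each experiment, and the effect of leaving out experiment 3 is given where a call was made.

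The first comparison asks how far the hairpins lowered Gmnn, which encodes geminin. Its probe set 1417506_at had control signals of 3557, 3477 and 3463 in experiments 1, 2 and 3. The GemKD signals were 983, 1669 and 1270. All GemKD arrays lay below all controls, as for 2.27% of the probe sets tested. The controls were close to each other, and the spread lay in the knockdown arm. The remaining signal was 27.6%, 48% and 36.7% of the control, lowest in experiment 1 and highest in experiment 2.

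On the log2 scale (signal plus 16, which understates changes of dim genes) the difference was -1.84, -1.05 and -1.44, with a mean of -1.44 (SE 0.17, 95% interval -1.83 to -1.06), a 2.72-fold decrease. On this scale, averaged over the experiments, this was the lowest value of all 31526 probe sets above the limit on dim signals. Within experiments 1, 2 and 3 Gmnn stood at place 8, 24 and 29 from the lowest. The rank depends on the 16 added to the signal. The dim Pde1a kept 25.7%, 24.1% and 32.4% of its control signal, less than Gmnn in each experiment. An exact two-sided permutation test over the 6 arrays gave p = 0.1, the smallest that 3 arrays against 3 allow. In limma across all probe sets the adjusted p of Gmnn was 0.296 with the arrays compared as 2 groups, and 0.000403 with the experiment as a block. In experiments 1 and 2 alone, where 0.0412% of probe sets were called with the block, it was 0.00426 at a log2 fold change of -1.44. That smaller fit singles out experiment 3 after its values were seen. It has fewer residual degrees of freedom than the 2 of the blocked fit of all arrays, so it is not a stricter check.

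With the arrays compared as 2 groups limma called 1 probe set of 31526 (0.00317%), which was higher, and 0 of the 18 tested probe sets of the 9 genes. With the experiment as a block it called 3 (0.00952%), 1 lower (0.00317%) and 2 higher (0.00634%), and the lower one was that of Gmnn. None of the other 17 member probe sets was called with or without the block. At an unadjusted p under 0.05 there were 0 of these 17 without the block, against 1.1% of all probe sets, and 2 with it, against 4.62%. These 2 were both of Cdt1.

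**Figure D1:**
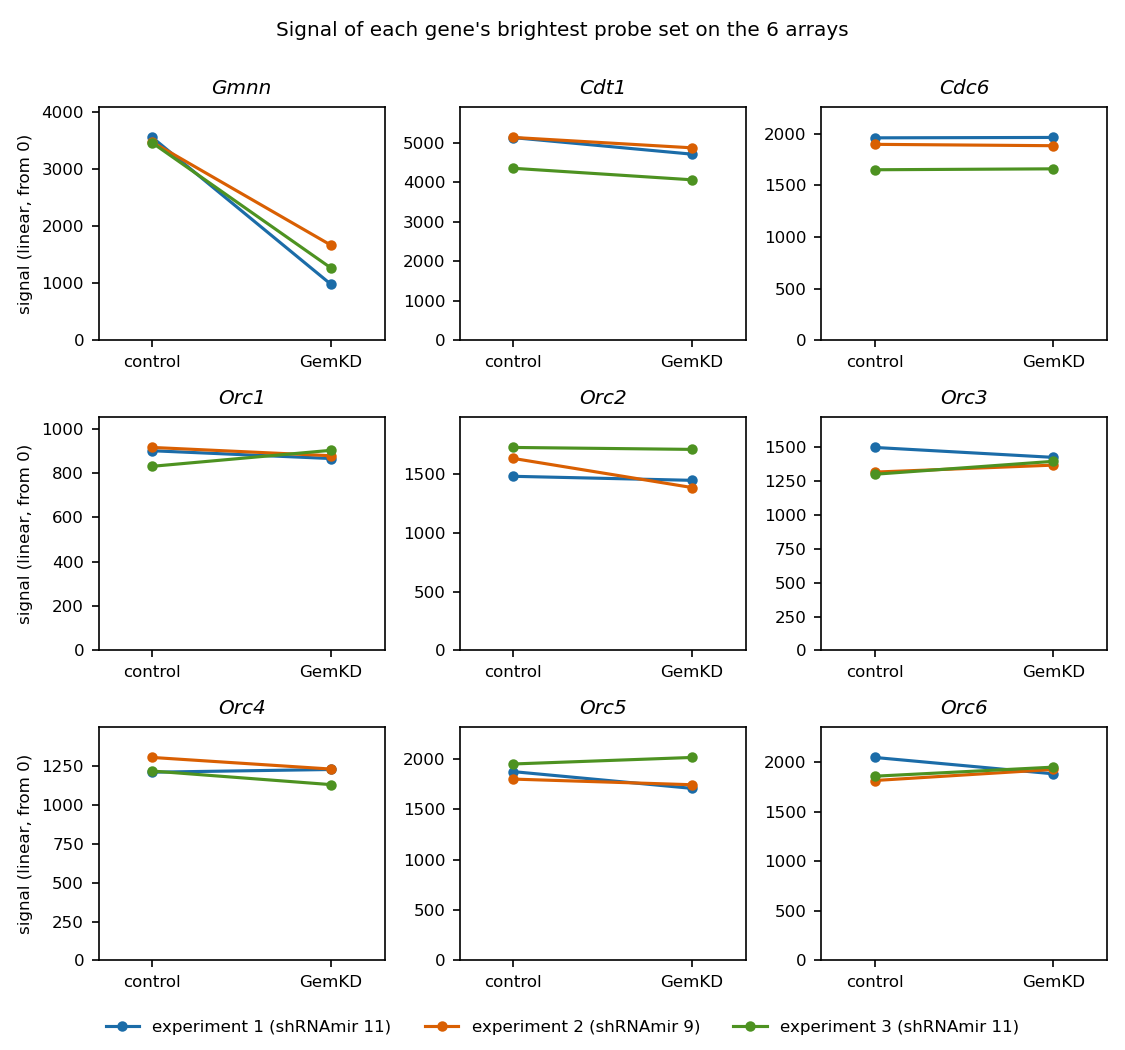
Signal (linear axis from 0) of the brightest probe set of each of the 9 genes in control and GemKD arrays, with a line joining the 2 arrays of an experiment. Gmnn goes from 3463 to 3557 in the controls down to between 983 and 1669, while the lines of the other 8 genes stay nearly level.

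Cdt1, the licensing factor that geminin binds, was measured by 2 bright probe sets and 1 near the low end of the scale. For the brighter one, 1424143_a_at, control signals were 5128, 5133 and 4353 in experiments 1, 2 and 3. GemKD signals were 4710, 4870 and 4061. Each GemKD array was below its own control, at 91.8%, 94.9% and 93.3% of it, but the groups overlapped because both arrays of experiment 3 were low.

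The log2 differences of this probe set were -0.12, -0.08 and -0.10, a mean of -0.10 with an SD of 0.02 over the 3 experiments. The second, 1424144_at, went from 3279, 3445 and 2947 in the controls to 3164, 3175 and 2654 in GemKD. It kept 96.5%, 92.2% and 90% of the control, a mean log2 difference of -0.11 with an SD of 0.05. Both probe sets were thus lower in 3 of 3 experiments, as were 10.5% of all probe sets tested, and by far less than Gmnn on the log2 scale.

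The size of this difference is bounded but the difference did not pass the test. The limma 95% interval of 1424143_a_at was -0.31 to 0.11 without the block and -0.18 to -0.02 with it, and its adjusted p was 0.992 with the block and 0.999993 without. For 1424144_at the intervals were -0.32 to 0.10 and -0.20 to -0.01, with the same adjusted p of 0.992 with the block. Both probe sets are annotated to the same gene and were measured on the same arrays, so they are not independent of each other.

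Cdt1 probe set 1455791_at had signals of 6.43, 3.26 and 1 in the controls and 5.52, 16.78 and 5 in GemKD. Its mean was below the limit of 20.1 under which probe sets were not tested, and it was the 1 member left out of the tests.

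Cdc6, the ATPase that joins ORC before the helicase is loaded, was the most even of the members. Control signals of 1417019_a_at were 1959, 1896 and 1650. GemKD signals were 1963, 1883 and 1659. The GemKD signal was 100%, 99.3% and 101% of the control, which left a mean log2 difference of 0.00 with an SD of 0.01 over the experiments. The 95% interval was -0.22 to 0.22 without and -0.11 to 0.11 with the block.

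Among the ORC subunits, Orc1 is the ATPase whose activity the complex depends on. Its brighter probe set 1422663_at had 901, 916 and 831 in the controls and 866, 879 and 903 in GemKD. The GemKD value was lower in experiments 1 and 2 (96.1% and 95.9%) and higher in experiment 3 (109%), and the groups overlapped. The dimmer 1443172_at had the same signs, with 94.2%, 90.1% and 115%. Mean log2 differences were 0.00 and -0.01, with blocked intervals of -0.16 to 0.16 and -0.26 to 0.24.

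Orc2, which pairs with Orc3 in the core of the complex, had 3 probe sets that did not go the same way. Probe set 1418226_at had 1480, 1632 and 1725 in the controls and 1446, 1384 and 1708 in GemKD. It was lower in 3 of 3 experiments, with most of the difference in experiment 2 (84.8% of control, against 97.7% and 99% in experiments 1 and 3). Probe set 1418227_at had 856, 706 and 959 in the controls and 831, 951 and 930 in GemKD.

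In experiment 2 that probe set was therefore at 135% of its control, where 1418226_at was at 84.8% and 1418225_at at 97%. The control array of experiment 2 was its lowest value of all 6, and its log2 difference in experiment 2 (0.42) was larger in size than any other within-experiment difference of the 17 tested probe sets other than that of Gmnn. Mean log2 differences of the 3 probe sets were -0.09, 0.00 and 0.11 for 1418226_at, 1418225_at and 1418227_at, and no direction can be given for Orc2.

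Orc3, the partner of Orc2, was measured best by 1416115_at, with 1499, 1317 and 1301 in the controls and 1426, 1369 and 1397 in GemKD. It was lower in experiment 1 (95.1%) and higher in experiments 2 and 3 (104% and 107%). The dimmer 1416116_at was lower in experiments 1 and 2 and higher in experiment 3, with a mean log2 difference of 0.02.

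The dimmest Orc3 probe set, 1416117_at, had 23.75, 22.33 and 21.88 in the controls and 29.66, 28.15 and 24.75 in GemKD. It was the 1 probe set besides that of Gmnn whose groups did not overlap, and it was higher in GemKD. All GemKD arrays lay above all controls for 2.83% of probe sets tested. Its signal was close to the limit of 20.1, its blocked interval was -0.22 to 0.56, and the 2 brighter probe sets of Orc3 did not follow it.

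Orc4, a further ATPase-fold subunit, had 4 tested probe sets. The brightest, 1453804_a_at, had 1210, 1304 and 1217 in the controls and 1227, 1230 and 1130 in GemKD, at 101%, 94.3% and 92.8% of the control. The other 3 were at 77.6% to 122% of the control, and in experiment 3 they ranged from a log2 difference of -0.34 (1431172_at) to 0.28 (1423336_at). No Orc4 probe set went the same way in all 3 experiments. A further probe set, given to both Orc4 and Acvr2a, was not counted.

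Orc5, likewise of the ATPase fold, had 1871, 1797 and 1947 in the controls and 1705, 1741 and 2011 in GemKD (1415830_at). It was at 91.1%, 96.9% and 103% of the control in experiments 1, 2 and 3. Orc6, the smallest subunit and the least like the others, had 2049, 1816 and 1859 in the controls and 1884, 1928 and 1951 in GemKD (1417037_at), at 91.9%, 106% and 105%. Their mean log2 differences were -0.04 (blocked interval -0.17 to 0.08) and 0.01 (-0.12 to 0.14).

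Over the 17 tested probe sets other than that of Gmnn, 8 had a negative and 9 a positive mean log2 difference, and the median was 0.00, against 0.01 over all probe sets tested. Of these 17, 3 were lower in all 3 experiments, the 2 of Cdt1 and 1 of Orc2, and 1 was higher, the dim one of Orc3. Over all probe sets tested these shares were 10.5% and 13.5%. The largest mean difference among the 17 was 0.17 in size, and the median half-width of the blocked interval over the 18 was 0.15.

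**Figure D2:**
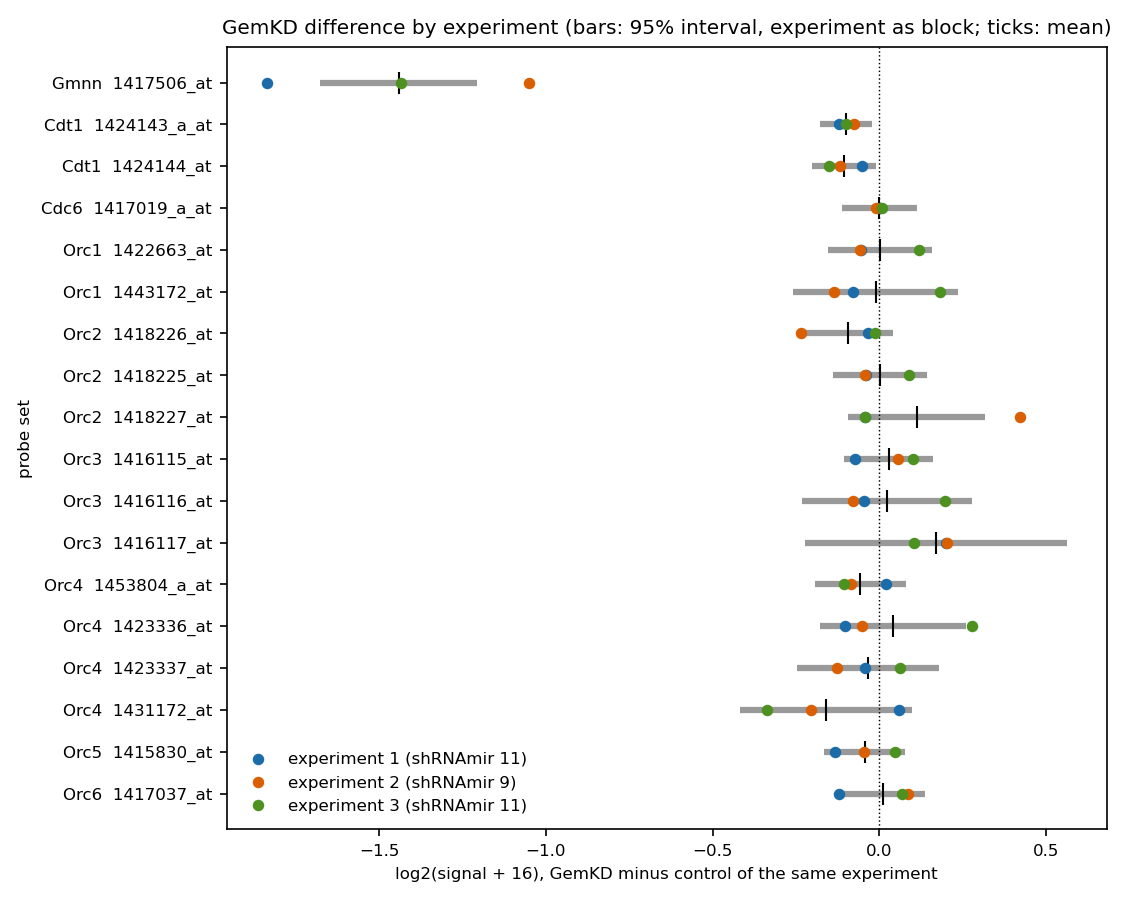
Difference in log2(signal + 16) between the GemKD and control arrays of each experiment for the 18 tested probe sets (points), with their mean (tick) and limma's 95% interval with the experiment as a block (grey bar). Gmnn lies between -1.84 and -1.05 and every other mean lies within 0.17 of 0.

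The second comparison asks whether the 2 hairpins differed. The remaining Gmnn signal was 48% with shRNAmir 9, against 27.6% and 36.7% with shRNAmir 11, so the 2 experiments with shRNAmir 11 also differed. The log2 difference between hairpins was 0.59 (95% interval -0.03 to 1.20, adjusted p = 0.999988 in limma), and with the experiment as a block 0.31 to 0.86 (adjusted p = 0.0415), a fit chosen after seeing the data that leaves 1 residual degree of freedom. Without the block 0 of 31526 probe sets were called, with 0.663% at an unadjusted p under 0.05, and with the block 106 (0.336%), with 4.32% at an unadjusted p under 0.05. ShRNAmir 9 was used in experiment 2 alone, so hairpin, line and experiment cannot be told apart. No other member probe set was called, the next by p being Orc2 1418227_at (adjusted p = 0.706 with the block), and for Cdt1 1424143_a_at the difference between hairpins was 0.04 (-0.14 to 0.22 with the block).

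The experiments were then set beside each other, as a description with no test, since experiment 3 was singled out after its values were seen. Gmnn was level in the controls. Both arrays of experiment 3 lay below the other 4 for 3 member probe sets, the 2 bright ones of Cdt1 and that of Cdc6, and above them for 6, of Orc1, Orc2 (2), Orc4 (2) and Orc5. Over all probe sets tested these shares were 25.7% below and 20.8% above. Signals of experiment 3 were 84.8% and 85.8% of those of experiments 1 and 2 for Cdt1 and 86% for Cdc6, log2 differences of -0.24, -0.22 and -0.22.

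For Orc2 they were 116% (1418226_at) and 123% (1418225_at), for Orc5 111%, and for the brightest probe sets of Orc1, Orc3, Orc4 and Orc6 97.4%, 96.2%, 94.4% and 99.3%. For Cdt1 and Cdc6 the experiment thus moved the signal more than GemKD did. Of 8 genes of dividing cells the median log2 difference of experiment 3 was -0.11, with Top2a at -0.23, Mki67 at -0.11 and Ccne1 at 0.22, and their summed signal was 25540.4 to 26346 in experiments 1 and 2 and 24406 to 24429 in experiment 3. The part of cell cycle state or cell type in the differences of Cdt1 and Cdc6 was not tested.

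**Figure D3:**
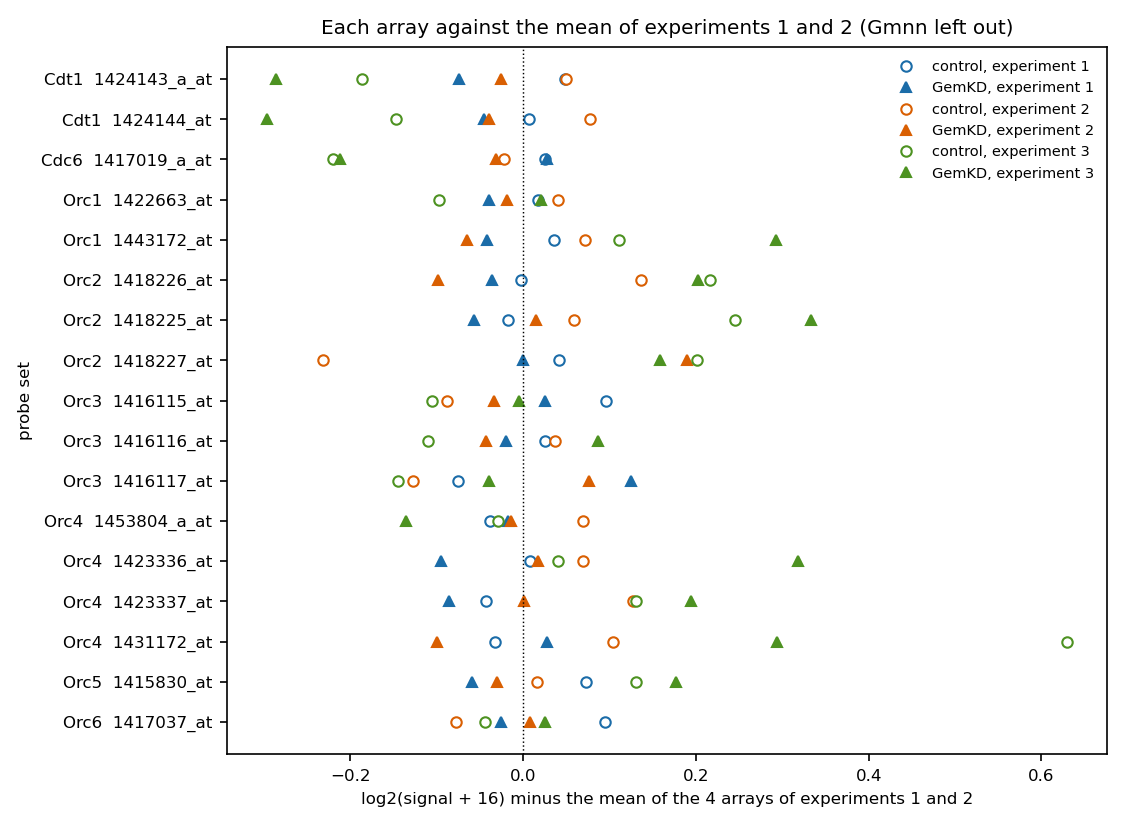
Each array's log2(signal + 16) minus the mean of the 4 arrays of experiments 1 and 2, for the 17 tested probe sets other than Gmnn (open circles, control; filled triangles, GemKD). Both experiment 3 arrays lie to the left for Cdt1 and Cdc6 and to the right for 2 probe sets of Orc2 and for Orc5, with mean log2 differences of -0.24 for Cdt1 and 0.29 for Orc2 1418225_at.

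Promoter sequence is shown for the members that hold a motif of E2F, the factor family that drives licensing genes at the start of S phase. The search was made after Cdt1 and Cdc6 were seen to be low in experiment 3. Both arrays of experiment 3 were below the other 4 for 25.7% of all probe sets tested, so this is not particular to these genes. The RefSeq promoter table (GRCm38.p6), with 250 bases before and 50 after each start site, held 8 of the 9 genes. The 8-letter motifs TTTCCCGC, TTTCGCGC, TTTGCCGC and TTTGGCGC were searched on both strands. They do not overlap in the stretches shown. Each stretch of 30 bases is on the strand of the gene, with the motif or its reverse complement in capitals.
Cdt1, chr8:122568035-122568064, plus strand: gggaactaccttTTTGGCGCcatggcgcaa
Cdc6, chr11:98908002-98908031, plus strand: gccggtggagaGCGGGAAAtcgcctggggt
Orc1, chr4:108579416-108579445, plus strand: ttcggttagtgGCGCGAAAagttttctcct
Orc3, chr4:34614965-34614994, minus strand: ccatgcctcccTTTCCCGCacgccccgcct

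The motif began 138, 27 and 41 bases before the start site in Cdc6, Orc1 and Orc3, and at base 33 after it in Cdt1. These 4 of 8 genes held a motif, against 2.6% of all 27025 genes in the table (2.26% of 32851 promoters). Orc2, Orc4, Orc5 and Orc6 had no match in their windows. Of the 4 genes with a match, Cdt1 and Cdc6 were lower in experiment 3 on both arrays, while for the brightest probe sets of Orc1 and Orc3 at least 1 array of experiment 3 lay within the range of the other 4. For the dimmer Orc1 probe set, 1443172_at, both arrays of experiment 3 lay above the other 4. The part of E2F in these values was not tested.

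Genes that act with the members were compared from 5 lists, each gene by its brightest probe set. None of the 72 tested genes was called in limma with or without the block. At an unadjusted p under 0.05 there were 0 without it, against 1.1% of all probe sets tested, and 2 with it, Kat7 and Kmt5a, against 4.62%. The median log2 fold change was 0.01 over the 72 genes and 0.00 over all 14185 genes tested, and 8 were lower and 8 higher in all 3 experiments. Over all genes 11.7% were lower and 12.2% higher in all 3.

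In the list of the MCM helicase and origin firing factors, 13 of 22 tested genes had a negative and 9 a positive log2 fold change, with a median of -0.03, and 5 were lower (22.7%) and 1 higher in all 3 experiments. Its largest values were 0.08 for Rif1, which restrains late origins, 0.08 for Ticrr, which brings Topbp1 to origins, and -0.07 for Recql4, a helicase of origin firing. Among 7 ORC partners the median was 0.00. Kat7, the histone acetyltransferase known as HBO1 that binds ORC1, was the largest at 0.14. Its signals were 2081, 2134 and 1455 in the controls and 2311, 2371 and 1579 in GemKD, higher in 3 of 3 experiments within overlapping groups (blocked adjusted p = 0.992).

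Kmt5a, the methyltransferase of histone H4 lysine 20 at origins, had 0.11, with 2394, 2441 and 2287 in the controls and 2654, 2644 and 2377 in GemKD. Lrwd1, which stabilises ORC on chromatin, had -0.09. The 23 genes that control turnover of geminin, Cdt1 and Cdc6 had a median of 0.02. Fbxo31, an F-box protein that targets Cdt1 in human cells, had 0.14, Anapc11, a subunit of the anaphase-promoting complex, 0.07, and Skp1 -0.06. In experiments 1, 2 and 3 Fbxo31 was at 132%, 102% and 101% of its control, so most of its difference lay in experiment 1. Anapc11 was at 116%, 106% and 94.7%. Dtl, the receptor that sends Cdt1 to destruction in S phase, had 0.03.

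Of the list fixed for the geminin family and its chromatin partners, the paralogues Gmnc and Mcidas were not analysed here. Of the 8 other genes 7 were tested, with a median of 0.02 and the largest values 0.07 (Rbx1), 0.04 (Tlk1) and 0.03 (Hdac1). Rbx1, a RING subunit of cullin ubiquitin ligases, was at 151%, 107% and 74.6% of its control in experiments 1, 2 and 3. Hdac1, a histone deacetylase, was higher in 3 of 3 experiments, and Tlk1, a kinase of histone chaperones, in 1. Six3, a forebrain factor that geminin binds in medaka fish, was too dim to test, at 19.8 ± 4.7 in the controls and 12 ± 1.2 in GemKD (SD, n = 3). The 13 E2F and pocket protein genes had a median of 0.01, with E2f4 at 0.16, E2f1 at 0.09 and Rb1 at -0.08. None of the 8 genes of dividing cells was called or had an unadjusted p under 0.05 with or without the block, and their median was -0.02. Of the 8 naive pluripotency genes, 7 were higher in all 3 experiments (87.5%, against 12.2% of all genes tested), with a median of 0.20. None was called over the 3 experiments. At an unadjusted p under 0.05 there were 3 with the block, against 4.62% of all probe sets tested, and 0 without it, against 1.1%. In experiments 1 and 2 alone, with the block, Nanog was called (log2 0.56, adjusted p = 0.00629), as were 0.0412% of all probe sets tested. That fit singles out experiment 3 after its values were seen. It also has fewer residual degrees of freedom than the 2 of the blocked fit of all arrays. Nanog was at 142%, 154% and 118% of its control in experiments 1, 2 and 3. The summed signal of the 8 genes went from 14132 to 15765, from 14824 to 16360 and from 10229 to 10555, with Pou5f1, the brightest, at 101%, 97% and 99.1% of its control. The part of these genes in the values of the members was not tested.

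**Figure D4:**
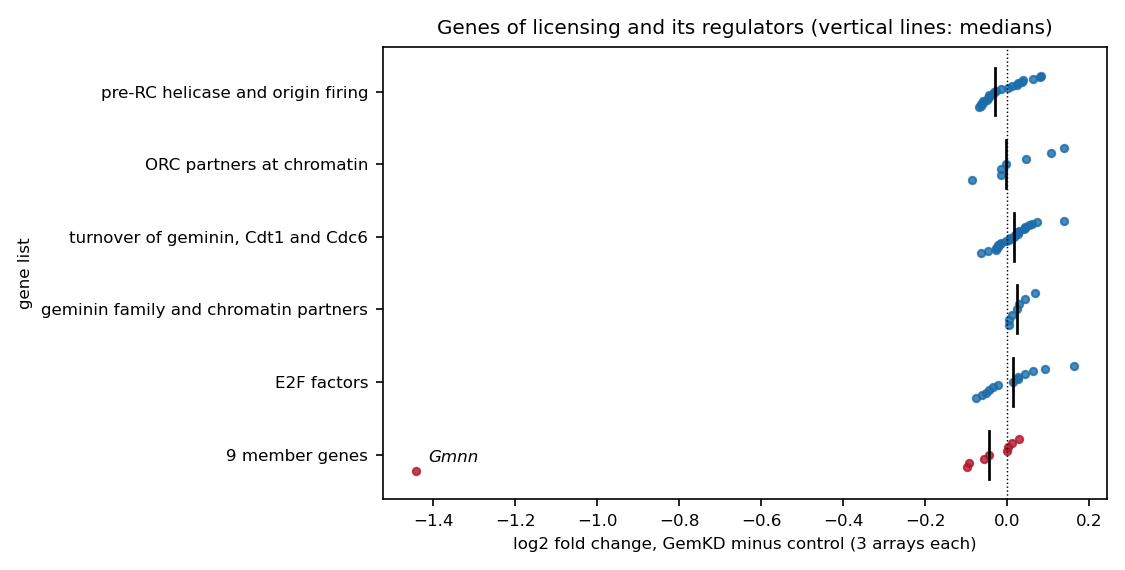
Log2 fold change of GemKD against control (3 arrays each, without a block) for each tested gene of the 5 lists and for the brightest probe sets of the 9 genes, with each list's median as a vertical line. Gmnn lies at -1.44 and the largest of the 72 listed genes is 0.16 in size.

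The genes whose signal followed Gmnn most closely over the 6 arrays were Gm3740 (Pearson's r = 0.968), Pou2f2 (0.947), Ccdc160 (0.945), Pde1a (0.924) and Zdhhc23 (0.912), among 3560 genes with an SD of at least 0.25 on the log2 scale. The 6 arrays share their experiments and cultures, so these values describe the arrays only. Ccdc160, the brightest of the 5, had 387, 394 and 319 in the controls and 212, 259 and 258 in GemKD. Its lowest GemKD array was that of experiment 1, as for Gmnn, but experiments 2 and 3 were level where Gmnn was not. Gm3740 and Pde1a were dim, at 26.19 to 34.68 and 42.97 to 59.89 in the controls.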

How the data were processed

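Total RNA of each culture was hybridised to its own Affymetrix Mouse Genome 430 2.0 array, per the labels' protocols. The authors deposited a linear signal intensity for each of 45037 probe sets and array. How these intensities were summarised and scaled is not given in the sources used here. Deposited intensity values were used unscaled as log2 of the signal plus 16, and 1.64% of them were exactly 1. Of the probe sets, 31526 had a mean above the 30th percentile (20.1) and were fitted with limma 3.58.1 (R 4.3.3; eBayes, intensity trend). P-values were two-sided and Benjamini-Hochberg adjusted, with calls under 0.05. The main fit had no block, and the alternative had the experiment as block. The experiments are independent and each has its own control, so their numbers pair the arrays. Deviations from group means correlated within experiments 1, 2 and 3 (0.431, 0.38 and 0.656). The group means include experiment 3, which stood apart in both groups, so these correlations cannot show pairing within experiments 1 and 2. The GemKD arrays of experiments 1 and 2 were closer to each other (SD of the log2 difference 0.115) than to their own controls (0.134 and 0.179). Each of these controls was closest to its own GemKD array. Hairpins were compared through the interaction of GemKD and hairpin. Symbols come from the platform annotation, and all 9 matched RefSeq by Entrez identifier.

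The members and lists were chosen with earlier results of these data known. Named were all member probe sets, from each licensing list the 3 genes with the largest log2 fold change and any called, and the 5 genes most correlated with Gmnn. Others, such as Dtl, Nanog and Six3, were picked with their values known. Settings varied were the block, quantile normalization, the filter, the pseudocount (1 or 64), 1 probe set per gene, the intensity trend and the arrays or experiments included. The fits of all arrays with and without the block, and the hairpin comparison without it, were tested on simulated data. The hairpin comparison with the block was not.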

Additional observations from a re-analysis of the deposited data

Results flagged for a closer look

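The fall of Gmnn differed between the hairpins in the fit with the experiment as a block, by 0.59 on the log2 scale (shRNAmir 9 less lowered, limma adjusted p = 0.0415), and not in the fit without it (adjusted p = 0.999988). The blocked fit rests on 1 residual degree of freedom and on 1 experiment with shRNAmir 9, whose line and experiment cannot be told apart from the hairpin. The 2 experiments with shRNAmir 11 also differed, with log2 differences of -1.84 and -1.44, against -1.05 with shRNAmir 9. These 3 values were nearly evenly spaced.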

How the results depend on the processing

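Gmnn fell under every setting run, with a log2 fold change between -1.64 and -1.24 when arrays or experiments were left out and -1.46 to -1.41 under other scalings and pseudocounts. Its call needs the block: the limma adjusted p was 0.000403 with the experiment as a block and 0.296 without it. Without the block and with 1 array left out it was between 0.0661 and 0.999992. The call also rests on limma's variance, which draws on other probe sets. The log2 differences of Gmnn had an SD of 0.39 over the 3 experiments, while the blocked SE was 0.11. Without the intensity trend the unblocked adjusted p was 0.999994, and the block was not run without the trend. The log2 fold change with the block was -1.44, with 1 probe set per gene as well (-1.44, adjusted p = 2.76e-06, a setting chosen after seeing the data). With the block and 1 experiment left out it was -1.24 to -1.64. The count of called probe sets was 1 without the block, 3 with it, 5 with the block and 1 probe set per gene, and 17, 12 and 13 with the block and without experiment 1, 2 or 3. It was 0 without the intensity trend, and 0 to 1 when 1 array or 1 experiment was left out without the block. The count of called member probe sets was 0 without the block and 1, that of Gmnn, under each of these 5 fits with the block. The hairpin comparison called 0 members without and 1 with the block. None of 338 values of the other member probe sets under an alternative was past the threshold. Both Cdt1 probe sets stayed negative in all settings run, and Cdc6 changed sign in 8, around a value of 0.00. No detection calls were used, and dim probe sets such as Orc3 1416117_at, at signals of 21.88 to 29.66, were judged by the filter alone.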
